A study of Mus musculus with 6 samples.

Results

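The genes described here are 9 transcription factor genes that neurons switch on within minutes to hours of strong activity: the zinc finger genes Egr1, Egr2, Egr3 and Egr4, the orphan nuclear receptor genes Nr4a1, Nr4a2 and Nr4a3, the bHLH-PAS gene Npas4 and the Krüppel-like gene Klf4. They were taken as all probe sets of the deposited array table that carry one of these symbols alone, which gave 19 of 45101 probe sets and covered all 9 genes. Of the 19, 12 probe sets for 8 genes had a mean log2 level of at least 4 over all mice and were tested. The other 7 lay under it and included the only probe set of Egr4, so Egr4 was not tested.

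Levels were measured in amygdala taken 2 h after extinction training from male 129S1/SvImJ mice, an inbred strain known for poor fear extinction, aged 8 to 10 weeks. All 6 mice had been through the extinction protocol, and no untrained mouse was analysed here, so a level cannot be read as induction over rest. The control mice (diet labelled Ctrl) were numbered 1, 9 and 11 in the sample titles and the zinc diet mice (labelled ZnR, with no zinc content given) 3, 7 and 10. What the numbers stand for is not stated. The term zinc diet is used below only as a name for the ZnR group. The labels used here do not tell whether zinc was raised or lowered in that diet. A higher level in zinc diet mice therefore cannot be read as an effect of added zinc. Each mouse gave 1 array, and each probe set reads the 3′ end of a transcript in whole dissected tissue, in which fewer cells of a type and less RNA per cell cannot be told apart.

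EGR proteins bind GC-rich sites through zinc fingers and carry synaptic signals into slower programmes of gene expression, and EGR1 in the amygdala is known for its part in fear memory. NR4A proteins are nuclear receptors that act without a classical ligand, and their genes are well-known targets of CREB, the cAMP-responsive factor. NPAS4 is induced by calcium entry and is best known for shaping inhibitory synapses. KLF4 is known from stem cells, blood vessel lining and neurons, where it restrains axon growth.

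Promoter sequences are shown first because EGR and NR4A genes are known to be switched on through short elements near their start sites. RefSeq promoter windows on GRCm38.p6 matched 7 of the 9 genes. Egr1 and Egr3 were not matched. The 250 bases before each start site were searched on both strands for the core of the cAMP response element (CRE core, TGACG, read as CGTCA on the other strand), the full element TGACGTCA (which holds the core), the CArG box bound by serum response factor, the EGR site GCGNGGGCG and the NR4A site AAAGGTCA. Capitals below mark CRE cores and the CArG box.
Nr4a1, chr15:101266596-101266845, plus strand: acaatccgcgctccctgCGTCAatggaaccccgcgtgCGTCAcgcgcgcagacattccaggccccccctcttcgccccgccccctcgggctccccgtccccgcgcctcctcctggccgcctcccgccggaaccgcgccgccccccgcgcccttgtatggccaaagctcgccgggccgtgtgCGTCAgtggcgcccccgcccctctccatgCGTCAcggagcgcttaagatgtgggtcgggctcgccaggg
Nr4a2, chr2:57124004-57124253, minus strand: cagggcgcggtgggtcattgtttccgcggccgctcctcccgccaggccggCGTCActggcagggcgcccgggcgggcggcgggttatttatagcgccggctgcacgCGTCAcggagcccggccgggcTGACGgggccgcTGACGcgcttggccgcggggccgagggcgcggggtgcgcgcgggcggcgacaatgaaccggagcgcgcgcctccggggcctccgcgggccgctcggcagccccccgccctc
Nr4a3, the closest pair of its cores, chr4:48045092-48045104, plus strand: CGTCAcatTGACG
Egr2, CArG box and the core beside it, chr10:67537797-67537818, plus strand: CCATATATGGgcagcgaCGTCA
Klf4, chr4:55532476-55532725, minus strand: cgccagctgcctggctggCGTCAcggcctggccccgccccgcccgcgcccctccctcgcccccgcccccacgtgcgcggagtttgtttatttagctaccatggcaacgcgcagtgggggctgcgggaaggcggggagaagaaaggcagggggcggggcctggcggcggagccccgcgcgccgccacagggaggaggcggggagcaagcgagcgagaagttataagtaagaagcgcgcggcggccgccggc

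Each of the 3 NR4A promoters held 4 CRE cores. Over all 32851 windows of the same length in the table, 17.8% held at least 1 core and 0.137% held 4 or more. Egr4 and Npas4 held 2 cores each, and Klf4 held 1. Egr2 has 5 windows, of which 4 held a CArG box, found in 1.47% of all windows. In 3 of those 4, which overlap and share the printed site, 2 CRE cores flanked the box. The EGR site was matched once in Nr4a1, once in Nr4a2 and at 2 places in Klf4, against 4.7% of all windows with a match. The full CRE (1.55% of all windows) and the NR4A site (1.34%) were matched in none of the members' windows. A match is a stretch of letters and says nothing of binding in these mice. The part of these matches in the measured levels was not tested.

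**Figure D1:**
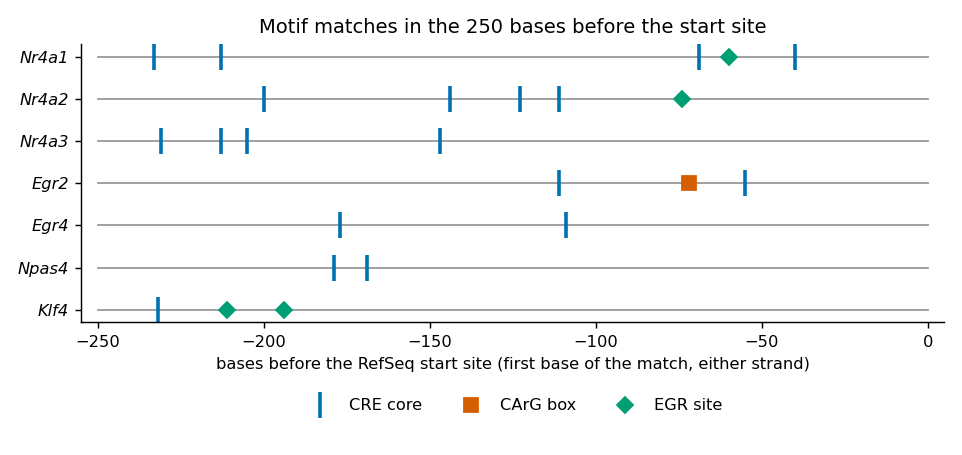
Motif matches in the 250 bases before the RefSeq start site of 7 genes; the x axis is the distance in bases from the first base of a match to the start site, blue bars are CRE cores, the orange square is a CArG box and green diamonds are EGR sites. The 3 NR4A genes each show 4 CRE cores, and the CArG box appears in Egr2 alone (the window shown is 1 of its 5).

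Of the 8 tested genes, 6 are described in 2 trios, by their order over the mice. Nr4a2, Egr3 and Klf4 were higher in all 3 zinc diet mice than in any control mouse, while Nr4a1, Egr1 and Egr2 had similar diet means and were highest in the mice numbered 1 and 3, which are of different diets. Npas4 and Nr4a3 were in neither trio. None of these differences passed limma's test after Benjamini-Hochberg adjustment over 22877 probe sets. For diet, 0 of the 12 member probe sets passed an adjusted p of 0.05, against 0% of all probe sets. At an unadjusted p under 0.05, 5 member probe sets of 3 genes were higher in zinc diet mice and 0 were lower, against 3.63% and 2.75% of all probe sets tested. Since 4 of the 12 probe sets read Nr4a2, the gene is the better unit. By the brightest probe set of each gene, 3 of 8 genes were higher, against 4.36% of all 11221 genes. By the same reading 0 were lower, against 2.68%. Leaving out control mouse 1 lowered the count of 5 to 3, of Nr4a2 and Klf4. Leaving out zinc diet mouse 7 also lowered it to 3, and leaving out zinc diet mouse 10 or control mouse 11 lowered it to 2. In these last cases all remaining probe sets were of Nr4a2, and neither Egr3 nor Klf4 was among them. Without zinc diet mouse 3 the count was 4, of Egr3, Nr4a2 and Nr4a3, the last lower in zinc diet mice. Klf4 was not among those 4. The 3 zinc and 3 control values did not overlap in 6 of the 12 probe sets, all higher in zinc diet mice, against 6.66% of all probe sets in that direction and 5.33% in the other. The median diet difference of the 12 was 0.24 on the log2 scale, against 0.0091 over all probe sets.

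Nr4a2, which encodes NURR1, a nuclear receptor needed by dopamine neurons and induced by activity in other neurons, had the smallest p for diet among the genes. Its brightest probe set stood at 10.30, 10.31 and 10.27 (log2) in control mice 1, 9 and 11 and at 10.56, 10.65 and 10.88 in zinc diet mice 3, 7 and 10. The control mice had an SD of 0.017 (n = 3), and every zinc diet mouse was above them. The difference was 0.40 ± 0.099 (SE) or 1.32-fold, with an unadjusted p of 0.0051 and a limma adjusted p of 0.55. The other 3 tested probe sets of Nr4a2 gave 0.43 ± 0.11, 0.27 ± 0.12 and 0.30 ± 0.11 (SE), of which the second was 0.16 without zinc replicate 10. One of them, the highest of these, is of a design that can match related transcripts. In all 4 the diets did not overlap, although the gap was narrow for 2 of them: 8.76 in control mouse 9 against 8.79 in zinc diet mouse 3, and 8.46 in control mouse 9 against 8.49 in zinc diet mouse 7. The 2 probe sets under the filter, at means of 3.04 and 2.62, showed differences of 0.072 and 0.012 and carry no test.

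Egr3, an EGR gene also known from muscle spindle development, was read at 11.998, 12.056 and 12.024 in control mice 1, 9 and 11 and at 12.133, 12.265 and 12.305 in zinc diet mice 3, 7 and 10. All zinc diet mice were again above all control mice, by a smaller step than in Nr4a2. The difference was 0.21 ± 0.077 (SE), 1.16-fold (unadjusted p = 0.032, limma adjusted p = 0.75). The spread within diets was small, at a residual SD of 0.067, which only 14.1% of all probe sets tested undercut. The order of the 6 mice was close to that in Nr4a2: zinc diet mouse 10 was highest and mouse 7 next in both genes. Its second probe set, at a mean of 3.38, was under the filter and differed by -0.029.

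Klf4 was the member with the largest diet difference. Control mice 1, 9 and 11 stood at 6.70, 6.10 and 6.04, and zinc diet mice 3, 7 and 10 at 6.72, 6.89 and 6.71. The lowest zinc diet mouse and control mouse 1 nearly met, and the other 2 control mice lay lower. The difference was 0.49 ± 0.18 (SE) or 1.41-fold (unadjusted p = 0.030, limma adjusted p = 0.75), and it ranged from 0.37 without control replicate 11 to 0.70 without control replicate 1. A second probe set with a mean of 3.95, just under the filter of 4, differed by 0.10 with the diets overlapping.

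**Figure D2:**
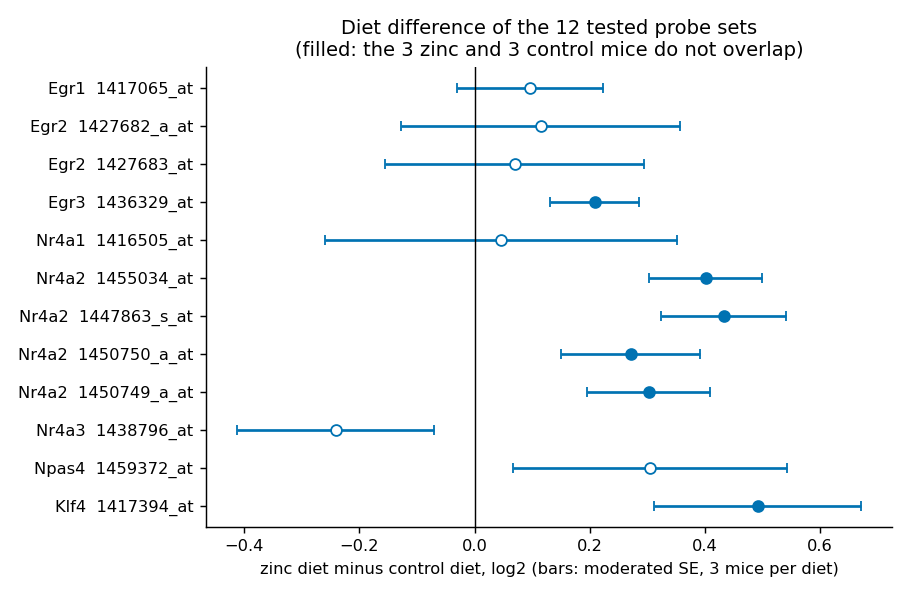
Diet difference (zinc minus control, log2, x axis) of each of the 12 tested probe sets with its moderated standard error, 3 mice per diet; filled points are probe sets whose diets do not overlap. The 4 probe sets of Nr4a2 (0.27 to 0.43), Egr3 (0.21) and Klf4 (0.49) are filled, and Nr4a3 alone lies below 0.

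Some markers of other cells and regions also differed by diet beside these 3 genes. The counts below stand against 4.36% of all 11221 genes higher and 2.68% lower by diet at a limma unadjusted p under 0.05. All 10 tested genes of the striatal spiny neuron list (of 12 written) were higher in every zinc diet mouse, with a list mean of 9.12 to 9.54 against 7.68 to 8.05 in control mice, and with Scn4b and Drd2 of the list close to the filter in control mice (4.36 and 4.17). The endothelial and pericyte list (10 of 13 tested) had means of 6.83 to 6.91 in zinc diet mice against 6.62 to 6.82 in control mice, with 1 of 10 genes higher at an unadjusted p under 0.05. Of its members, Cldn5, which defines brain endothelium, differed by 0.080 ± 0.11 (SE). The excitatory neuron list (9 of 10 tested) was written for amygdala pyramidal cells, and its genes were well above the filter in all mice. It had means of 9.83 to 10.02 against 9.76 to 9.79, with 4 genes higher and 2 lower at an unadjusted p under 0.05. Its genes went both ways, with 3 higher and 3 lower in all zinc diet mice. All 9 tested myelin and oligodendrocyte genes (of 10) had a higher mean in zinc diet mice, with a median difference of 0.38, but only Ermn (0.55 ± 0.23 SE, unadjusted p = 0.048) reached an unadjusted p under 0.05, and the list means overlapped, at 9.90 to 10.60 against 9.45 to 10.05, highest in zinc diet mouse 7. In the choroid plexus list (4 of 6 tested) control mouse 9 stood apart, with a list mean of 9.28 against 6.38 and 6.09 in control mice 1 and 11 and 5.62 to 6.56 in zinc diet mice. Kcnj13 (7.56) and Kl (6.17 in control mouse 9) reached the filter only through that mouse, so its list mean was partly set by the filter. Ttr (14.68) and Clic6 (8.70) were also highest in that mouse. Without control mouse 9 the count of 5 member probe sets higher by diet was again 5, but not of the same probe sets. They were Egr3 and the 4 probe sets of Nr4a2, while Klf4 dropped out (0.40 ± 0.20 SE, limma unadjusted p = 0.095). The list means of inhibitory neuron, microglia and astrocyte genes overlapped between diets. Of 8 inhibitory neuron genes, 0 were higher and 1 lower at a limma unadjusted p under 0.05. That gene was Dlx1, lower in all zinc diet mice (-0.38 ± 0.069 SE, limma adjusted p = 0.38). Pvalb was higher in all zinc diet mice (0.74 ± 0.32 SE, limma unadjusted p = 0.052). Both were named after their values were seen. In the microglia and astrocyte lists 0 genes passed that p for diet. The part of these marker changes in the values of Nr4a2, Egr3 and Klf4 was not tested.

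Nr4a1, which encodes NUR77 and is among the fastest NR4A genes to be induced, belongs to the other trio. Its level was 9.02, 8.02 and 8.13 in control mice 1, 9 and 11 and 8.89, 8.17 and 8.25 in zinc diet mice 3, 7 and 10. One mouse of each diet was therefore well above the other 4, and the diet means of 8.39 ± 0.55 and 8.44 ± 0.39 (SD, n = 3 each) differed by 0.045 ± 0.31 (SE). With a limma slope along the title number and diet in the same fit, Nr4a1 was lower by 0.98 ± 0.19 (SE) per 10 numbers, 1.97-fold, with an unadjusted p of 0.0019 and a limma adjusted p of 0.21. Within each diet the slopes were -0.99 in control and -0.96 in zinc diet mice, over 3 mice each. Its residual SD within diets, 0.48, was above that of 97.9% of all probe sets, and with the number in the fit it was 0.21.

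Egr2, an EGR gene also known from myelinating Schwann cells, ran alongside on both of its probe sets. The brighter one gave 8.06, 7.41 and 7.26 in control mice 1, 9 and 11 and 8.04, 7.45 and 7.58 in zinc diet mice 3, 7 and 10. The other gave 6.98, 6.65 and 6.37 against 7.15, 6.40 and 6.65. In both, the mice numbered 1 and 3 were the top 2, and the diets overlapped. Slopes per 10 numbers were -0.77 ± 0.16 (SE, unadjusted p = 0.0023, limma adjusted p = 0.22) and -0.62 ± 0.21 (unadjusted p = 0.023, limma adjusted p = 0.38), and diet differences were 0.11 ± 0.24 and 0.069 ± 0.22 (SE).

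Egr1, also called Zif268, was at 12.85, 12.64 and 12.47 in control mice 1, 9 and 11 and at 12.92, 12.63 and 12.70 in zinc diet mice 3, 7 and 10. The same 2 mice were highest, over a range of 0.45, the narrowest of this trio. The slope was -0.35 ± 0.12 (SE) per 10 numbers (unadjusted p = 0.026, limma adjusted p = 0.40), with -0.35 within control and -0.34 within zinc diet mice, and the diet difference was 0.096 ± 0.13 (SE). Klf4 had a slope of -0.47 ± 0.17 (unadjusted p = 0.034, limma adjusted p = 0.43), but it came from the control mice: -0.68 among them and 0.0054 among zinc diet mice. Without control replicate 1 it was -0.018, and with the number as the only term its unadjusted p was 0.13.

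Along the title number, 5 of the 12 member probe sets, of 4 genes, had falling slopes at an unadjusted p under 0.05, and 0 had rising ones. Over all probe sets tested 6.39% fell and 3.86% rose at that p, and 0 members passed an adjusted p of 0.05 against 0.00437% of all probe sets. The falling slopes of Nr4a1, Egr2 and Egr1 rest on the mice numbered 1 and 3, which lie farthest from the median number of 8. Without both, the slope of Nr4a1 was 0.35 ± 0.40, those of Egr2 were 0.076 ± 0.48 and 0.16 ± 0.65, and that of Egr1 was -0.10 ± 0.47 (SE), while that of Klf4 was -0.50 ± 0.40. Leaving out control mouse 1 alone brought the count of 5 to 0, though the slopes of Nr4a1 (-0.84 ± 0.35), Egr2 (-0.71 ± 0.28 and -0.81 ± 0.38) and Egr1 (-0.38 ± 0.20 SE) stayed about as steep with larger errors. It was 3 when zinc diet mouse 3 was left out, 2 when control mouse 11 was, and 1 when mice 1 and 3 both were. That 1 was Npas4, with a rising slope.

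**Figure D3:**
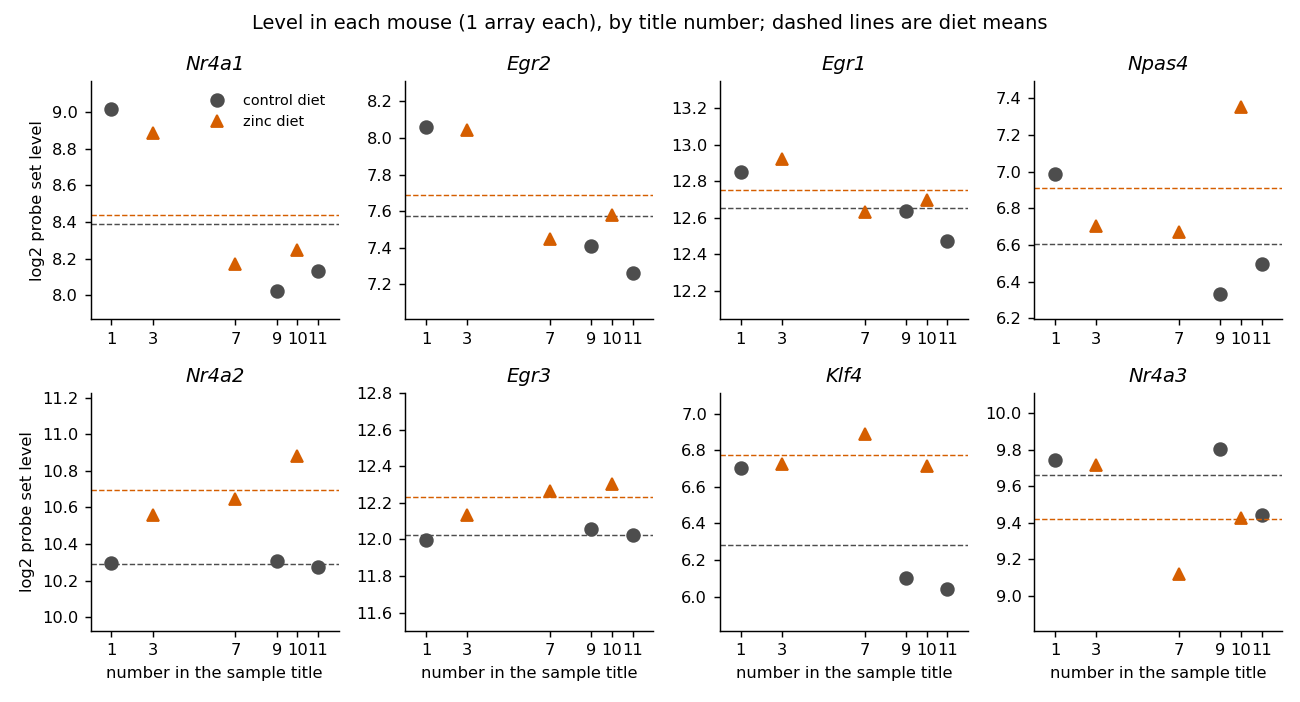
Log2 level in each mouse (y axis; every panel spans the same 1.3 log2 units) against the number in the sample title (x axis), for the brightest tested probe set of each gene; grey circles are control mice, orange triangles zinc diet mice and dashed lines the diet means. Nr4a1, Egr2 and Egr1 are highest in mice 1 and 3 of either diet, whereas for Nr4a2, Egr3 and Klf4 all triangles lie above all circles.

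The remaining 2 tested genes had neither order. Npas4 stood at 6.99, 6.33 and 6.49 in control mice 1, 9 and 11 and at 6.70, 6.67 and 7.36 in zinc diet mice 3, 7 and 10. Zinc diet mouse 10 was highest and control mouse 1 next, so the diets overlapped, and the difference was 0.30 ± 0.24 (SE, unadjusted p = 0.24, limma adjusted p = 0.87). Without zinc replicate 10 the difference was 0.082, and without control replicate 1 it was 0.50. Its slope per 10 numbers, -0.14 ± 0.34, was 0.87 ± 0.33 without control replicate 1. Nr4a3, which encodes NOR1, the third NR4A receptor, was the one tested member with a lower mean in zinc diet mice. Control mice 1, 9 and 11 were at 9.74, 9.80 and 9.44 and zinc diet mice 3, 7 and 10 at 9.72, 9.12 and 9.43, a difference of -0.24 ± 0.17 (SE, unadjusted p = 0.20, limma adjusted p = 0.87). Zinc diet mouse 7 was the lowest, and the other mice overlapped. The difference was -0.090 without that mouse and -0.39 (unadjusted p = 0.048, limma adjusted p = 0.80) without zinc replicate 3. The other Nr4a3 probe sets, at means of 3.30 and 1.91, and the single probe set of Egr4, at 3.60 to 3.82 in all mice, were under the filter.

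**Figure D4:**
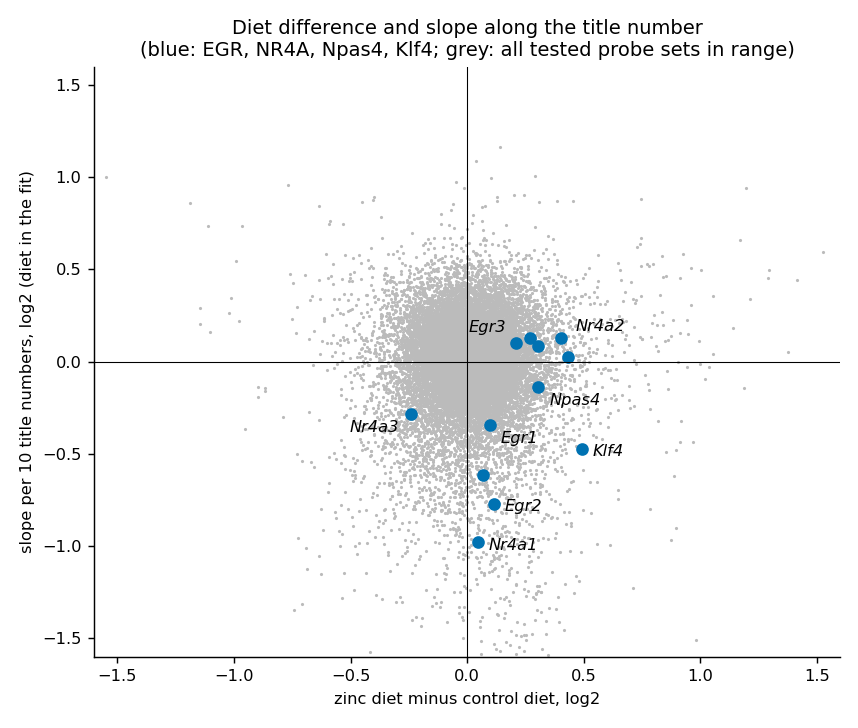
Diet difference (x axis, log2) against the slope per 10 title numbers with diet in the fit (y axis, log2) for the 12 member probe sets (blue) and all tested probe sets (grey; those beyond 1.6 log2 on either axis are not drawn). Nr4a1 (-0.98) and Egr2 (-0.77 and -0.62) lie low near a diet difference of 0, the 4 Nr4a2 probe sets lie to the right near a slope of 0, and Klf4 lies right and low.

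Members varied more between mice of one diet than most probe sets. Their median residual SD within diets was 0.21, against 0.14 over all probe sets tested, and 9 of the 12 were above that median. Npas4 (0.36), both Egr2 probe sets (0.37 and 0.34) and Nr4a1 (0.48) were each above the level of 94% of all probe sets, while Egr3 (0.067) and the brightest Nr4a2 probe set (0.12) were below the overall median.

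Partners, regulators and targets of these factors were read from lists, with the brightest probe set of each gene. None of the genes in them passed limma's adjusted p of 0.05 for diet or number. Over all 11221 genes, 4.36% were higher and 2.68% lower by diet at an unadjusted p under 0.05, and 2.31% fell and 4.16% rose with the number. The first list held EGR corepressor and EGR-related zinc finger genes. In it, Nab2 encodes a corepressor that EGR factors induce as a brake on themselves. Nab2 was at 6.56, 6.04 and 6.17 in control mice 1, 9 and 11 and at 6.57, 6.25 and 6.22 in zinc diet mice 3, 7 and 10. It was thus highest in the same 2 mice as Egr1, Egr2 and Nr4a1, with a slope of -0.48 ± 0.13 (SE) per 10 numbers (unadjusted p = 0.0087, limma adjusted p = 0.30). Nab1 had a slope of -0.097 ± 0.12 and a diet difference of 0.083 ± 0.084 (SE), and Wt1 of that list was under the filter. The retinoid X receptor genes, whose products pair with some NR4A receptors, gave 0 of 3 at an unadjusted p under 0.05 for diet or number, with Rxrg at 0.12 ± 0.10 and Rxrb at 0.023 ± 0.16 (SE) for diet. Among the NPAS4 partner genes and relatives (5 of 7 tested), Arnt was lower in all zinc diet mice, though the diets nearly met (-0.19 ± 0.094) and Npas2 differed by 0.20 ± 0.14 (SE). By number, 1 gene of that list fell at an unadjusted p under 0.05, Sim1 (slope -2.32 ± 0.59 SE), named after its value was seen. Sim1 was at 5.85, 2.98 and 3.67 in control mice 1, 9 and 11 and at 4.69, 5.03 and 3.39 in zinc diet mice 3, 7 and 10. In mice 9, 10 and 11 it lay under the filter level of 4, where values may be background. It passed the filter only through the other mice.

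In the KLF family (12 of 16 tested besides Klf4), 1 gene was higher and 0 lower by diet at an unadjusted p under 0.05, and the median difference was 0.017. That gene was Klf3, at 9.01, 8.89 and 9.01 in control mice and 9.19, 9.34 and 9.26 in zinc diet mice, a difference of 0.29 ± 0.079 (SE, unadjusted p = 0.0083, limma adjusted p = 0.62). Klf11 was lower in all zinc diet mice (-0.27 ± 0.13 SE), though control mouse 9 (5.24) and zinc diet mouse 3 (5.21) nearly met. In the family, 2 genes were higher and 2 lower in all zinc diet mice, against 6.66% and 5.33% of all probe sets tested. By number, 2 KLF genes fell and 0 rose at that p, Klf10 (slope -0.79 ± 0.22) and Klf2 (-0.42 ± 0.12 SE), named after their values were seen. Among 14 tested genes (of 17) for serum response and CREB factors, 2 were higher for diet at that p and 0 lower: Crem, a CREB family gene that is itself cAMP-induced (0.36 ± 0.12), and Elk3 (0.34 ± 0.12 SE). By number, Crebbp fell (-0.46 ± 0.15) and Elk1 rose (0.54 ± 0.18 SE) at that p, both named after their values were seen. Of 11 tested upstream kinase genes (of 16), 3 were higher and 0 lower, Rps6ka3 (0.22 ± 0.075) and Rps6ka5 (0.21 ± 0.084 SE), which encode RSK2 and MSK1, kinases that phosphorylate CREB, and Camk4 (0.25 ± 0.099 SE), named after its value was seen. By number 0 of the 11 passed that p. Phosphatase genes that limit ERK signalling gave 0 of 8 for diet, with Dusp4 at -0.15 ± 0.12 and Dusp14 at -0.14 ± 0.12 (SE). By number, Dusp1, an early response phosphatase gene, had a falling slope (-0.63 ± 0.17 SE, unadjusted p = 0.010, limma adjusted p = 0.31) and was highest in mice 1 and 3 (9.34 and 9.23), and Ptpn5 had a rising one (0.33 ± 0.13 SE, unadjusted p = 0.046), both named after their values were seen.

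Of other early response factor genes, 14 of 17 were tested. By diet, 3 were higher and 0 lower at an unadjusted p under 0.05: Ier5 (0.48 ± 0.14 SE), Crem and Fosb (0.22 ± 0.083 SE), the last named after its value was seen. By number, 5 fell and 0 rose at that p, and the median slope was -0.37 against 0.033 over all genes. Fos, the standard marker of recent neuronal activity, was at 10.73, 9.80 and 9.66 in control mice 1, 9 and 11 and at 10.91, 9.51 and 9.67 in zinc diet mice 3, 7 and 10, with a slope of -1.33 ± 0.31 (SE) per 10 numbers (unadjusted p = 0.0046, limma adjusted p = 0.25). The other 4 were Ier5, Per1, Cebpd and Btg2, of which the last 3 were named after their values were seen. Cebpd and Per1 respond to glucocorticoids.

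Among 8 genes described as EGR targets, 0 differed by diet at an unadjusted p under 0.05 and 2, Arc and Nab2, had falling slopes. Arc, a synaptic gene that EGR factors act on, was at 8.18, 6.83 and 7.05 in control mice 1, 9 and 11 and at 8.45, 7.22 and 7.14 in zinc diet mice 3, 7 and 10 (slope -1.48 ± 0.28 SE per 10 numbers, unadjusted p = 0.0017, limma adjusted p = 0.20). Mice 1 and 3 were again well above the other 4. Cdk5r1 (-0.056 ± 0.068) and Psen2 (-0.15 ± 0.10 SE) had the smallest p for diet in that list. Of 7 genes described as NPAS4 targets, 0 passed that p for diet or number: Bdnf gave -0.11 ± 0.15, Rgs2 0.15 ± 0.072 and Ptgs2 0.086 ± 0.11 (SE) for diet. Of the dopamine neuron genes that NURR1 acts on, 3 of 6 were tested, with 1 higher and 0 lower by diet at an unadjusted p under 0.05. That gene was Aldh1a1, higher in all zinc diet mice (0.56 ± 0.16 SE, unadjusted p = 0.0096, limma adjusted p = 0.65). Ret differed by 0.22 ± 0.11 and Ddc by -0.039 ± 0.097 (SE), the latter named after its value was seen. Th, Slc6a3 and Slc18a2 were under the filter.

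The title number went with one more measure. Malat1, a long noncoding RNA kept in the nucleus, was at 13.81, 12.82 and 12.22 in control mice 1, 9 and 11 and at 13.73, 12.95 and 12.55 in zinc diet mice 3, 7 and 10, with a slope of -1.56 per 10 numbers (unadjusted p = 3.8e-05, limma adjusted p = 0.13), and 5 of its 7 tested probe sets fell at an unadjusted p under 0.05. Unlike Nr4a1, it kept falling among mice 7 to 11. The 3′ minus 5′ difference of the Gapdh control probe sets, a sign of RNA integrity, was -0.18 to -0.044 in all mice, and that of the actin controls 0.75 to 0.94, highest in mouse 11. Array medians were 4.04 to 4.09. The part of these measures in the levels of Nr4a1, Egr1 and Egr2 was not tested.

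The mean course of the 8 tested genes, each centred on its own mean, was 0.18, -0.19 and -0.26 in control mice 1, 9 and 11 and 0.19, -0.045 and 0.13 in zinc diet mice 3, 7 and 10. It averages genes that differed in their order over the mice. Of 11213 other genes, Zbtb11 (Pearson r = 0.98), Gm31679 (0.98), Notch1 (0.98), Orc4 (0.98), Zyg11b (0.98), Papola (0.97), Letm1 (0.97) and Kbtbd8 (0.97) had the levels most like it. This is a description over 6 mice, at which 89 genes exceeded 0.9. Zbtb11 itself varied only between 11.31 and 11.44.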

How the data were processed

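Values are the log2 probe set levels deposited by the authors as 1 table for 6 Affymetrix Mouse430_2 arrays, 1 per mouse and 3 per diet, from 500 ng of total RNA each per the labels' protocols. Per the submitters' processing notes, R 2.15.1 and GCRMA 2.28.0 were used, in a role not given there. That values are log2 was inferred from their range. Whether values were centred is unknown, and no detection call was used here, so low levels may be background. The number of arrays limits the precision. P-values set a difference or slope against the spread between these mice, moderated over all probe sets tested, and take the mice as independent. Nothing says whether mice shared litters.

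Probe sets were named from the platform annotation (1 symbol for 34958, several for 932, none for 9211). Control probe sets (64) were left out, and a mean log2 level of at least 4 over all mice was required, which left 22877. Limma 3.58.1 in R 4.3.3 (lmFit, eBayes, two-sided) gave the diet difference and, in a second fit with diet and title number, the slope. Both fits were tested on simulated data. P-values were adjusted with Benjamini-Hochberg over all probe sets tested, at a threshold of 0.05. SE is the moderated standard error, and residual SD is the spread within diets. Genes in lists were read from their brightest probe set. Named were all members, the 2 genes of each list with the smallest p for diet, Fos, Arc and Bdnf, and the 8 genes most like the member mean. Members, lists and tests were chosen with earlier results of these data known. Promoter windows are from RefSeq (GRCm38.p6). Alternatives were filters, normalization, eBayes settings, array weights, the number as covariate, only term or rank, a floor at 4, and leaving out mice. Leaving out mice 1 and 3 together, and counts at an unadjusted p, were chosen after seeing the data.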

Additional observations from a re-analysis of the deposited data

How the results depend on the processing

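With 3 mice per diet, the adjusted count for diet or number was 0 members in the main setting and under every alternative run, which for diet included probe sets averaged by gene (limma; 5 probe sets each for diet and number at an unadjusted p under 0.05). Leaving out 1 mouse gave 2 to 5 probe sets for diet, counted in either direction, and 0 to 6 for number at that p. Without the mice numbered 1 and 3 together it was 1 for number (Npas4, rising). Of 24 single results (12 diet differences, 12 slopes), 13 kept their sign in all alternatives. Signs turned in 21 of 312 values. Leaving out 1 mouse, the diet difference ranged from -0.062 to 0.35 and from -0.14 to 0.23 for the Egr2 probe sets and from -0.18 to 0.36 for Nr4a1, and the slope per 10 numbers from -0.084 to 0.21 (probe set with a mean of 9.03) and from -0.018 to 0.35 (mean 8.78) for Nr4a2, and from -0.52 to 0.87 for Npas4. Without mice 1 and 3, slopes were 0.076 and 0.16 for Egr2, 0.35 for Nr4a1, -0.0075 (probe set with a mean of 9.03) and -0.096 (mean 8.42) for Nr4a2, 0.15 for Nr4a3 and 1.83 for Npas4. The slope of Nr4a2 (mean 9.03, slope 0.023) was -0.0039 with the number as the only term and -0.017 with its rank. No paired analysis was possible because the diets share no mouse number. Low probe sets, such as that of Egr4, could not be told from background.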
